A study of Rattus norvegicus with 16 samples.

Results

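Rats that drank water and ate a high-salt chow for 7 days (group CHS, rats 9 to 12) were compared with rats that drank water and ate a standard chow (group CNS, rats 1 to 4), 4 animals a side, and the difference CHS minus CNS is described across 18383 gene symbols of the renal cortex. These 8 arrays belong to a set of 16, in which 8 more rats ate the same chows but had 20% fructose in the drinking water (FNS, rats 5 to 8, standard chow, and FHS, rats 13 to 16, high-salt chow). All were male Sprague-Dawley rats, an outbred strain, 7 weeks old by their labels, and none carried a transgene or deletion. RNA came from the superficial cortex of the kidney, 1 array per rat. The high-salt chow held 4% NaCl and came from Harlan, while the standard chow came from Prolab. The study's methods give different makers, protein, carbohydrate and energy for these chows, so salt and the rest of the diet cannot be told apart, and every difference below is one between chows. The rats were housed in pairs and the labels do not say which shared a cage.

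Most of the salt that the glomeruli filter is taken back along the nephron: the larger share by the proximal tubule, which fills the superficial cortex, and a finely regulated remainder by the distal convoluted and connecting tubules, whose channels and cotransporters answer to angiotensin and aldosterone. Kidney cells also keep a circadian clock, in which BMAL1 with CLOCK or NPAS2 switches on the Per and Cry genes, whose proteins then switch their own activators off. Feeding time and glucocorticoids are known to set the phase of this clock in peripheral organs.

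Each value is a log2 signal on a scale that ran from 1.76 to 13.85, and a difference of 1 between group means is a doubling of signal. The array probes are grouped into 36685 TranscriptClusterIDs, roughly 1 per transcribed locus. At an adjusted p below 0.05 (limma, Benjamini and Hochberg over all 36685), 1208 TranscriptClusterIDs differed between CHS and CNS, or 3.29%, with 484 higher and 724 lower on the high-salt chow. Among the gene symbols, each represented by its TranscriptClusterID of highest mean, 610 of 18383 differed, or 3.32%. Of these, 198 were higher (1.08% of all symbols) and 412 lower (2.24%). The changes were mostly small. The median absolute log2 change of the 610 symbols was 0.53, and 29 symbols changed by 1 or more, 17 of them up and 12 down. The largest fall among symbols was that of the clock activator Bmal1, and the largest rise was that of an olfactory receptor, Or5h25. The values of the CHS rats and of the CNS rats did not overlap for 593 of the 610 symbols, while over all symbols this held for 13.6%. The 610 were chosen by their p on these same rats, so this lack of overlap is no separate support for them. The count depended on the fit and on single rats. It was 533 in a fit of the 8 arrays alone and 400 by analysis of variance of those arrays. It was 562 without CNS rat 1, 611 without CNS rat 3, 645 without CHS rat 10, 778 without CHS rat 11 and 605 without CHS rat 12, beside the 1208 with all rats.

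Ranked by level among all symbols, 10 genes of early proximal tubule (S1 and S2) had a median percentile of 99.3, against 37.0 for 6 markers of inner medulla and thin limbs, 33.7 for urothelium and 18.5 for adrenal. None of the markers of those 3 contaminating tissues, nor of blood or fat, was called. The summed linear signal of 8 markers of the deeper S3 segment varied widely among rats, from 5218 to 14406 in CNS and from 5526 to 14468 in CHS. This spread within both groups was wider than the difference between their means, 11615 and 9005. The rats were split unevenly, however. In CNS rat 2 alone was low and the others lay at 12505 or above, whereas in CHS rat 11 was high and the others lay at 9722 or below. The summed inner medulla and thin limb markers were low and high in the same 2 rats, with group means of 1103 in CNS and 780 in CHS. Whether the depth of the cut differed between the groups was not tested. Arrays of the same group correlated at 0.981 to 0.987 across all TranscriptClusterIDs and arrays of different groups at 0.975 to 0.983.

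The largest fall was in genes of the circadian clock. In the rats on high-salt chow the activators Bmal1 and Npas2 were low, while the repressors Per1, Per2, Cry2 and Ciart and the output factor Tef were high. Of 17 measured members of a list of clock genes and their output factors, 8 were called, 6 higher and 2 lower, or 47.1%, where 3.32% of all symbols were called. The median change of the list was 0.43 on the log2 scale, against 0.0079 over all symbols. The groups did not overlap for 10 of the 17 members (58.8%), where 13.6% of all symbols had no overlap. The number of members called ran from 6 to 10 when any of the 8 rats was left out.

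Bmal1, which encodes the obligate partner of CLOCK and NPAS2, had log2 signals of 8.51, 8.16, 8.88 and 7.21 in CNS rats 1 to 4 and of 5.95, 6.26, 5.84 and 5.72 in CHS rats 9 to 12. The lowest control, rat 4, thus lay nearest to the high-salt rats but still above each of them. The change was -2.25 ± 0.35 (standard error, n = 4 a side, adjusted p = 0.00385 by limma), a 4.75-fold lower signal. Npas2, which can stand in for Clock, had 8.52, 8.16, 8.71 and 7.73 in CNS and 6.87, 7.08, 6.62 and 6.58 in CHS, a change of -1.49 ± 0.23 (adjusted p = 0.00402). Rat 4 was again the lowest of the controls. Clock itself changed by -0.20 ± 0.12 and was not called (adjusted p = 0.411), and its groups overlapped.

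The repressor arm moved the opposite way. Per1, a period gene that glucocorticoids and aldosterone also induce, had 6.07, 7.28, 6.19 and 6.30 in CNS and 8.06, 8.01, 7.84 and 8.02 in CHS, and rose by 1.52 ± 0.20 (adjusted p = 0.00121), or 2.87-fold. Here rat 2, not rat 4, was the control nearest to the high-salt rats. Ciart, which encodes a repressor of the BMAL1 and CLOCK complex, had 4.17, 4.39, 4.57 and 4.74 in CNS and 5.91, 6.005, 5.98 and 6.21 in CHS, and rose by 1.56 ± 0.24 (adjusted p = 0.00319). Ciart was dim in CNS, below the array medians of 5.26 to 5.29, and in CHS lay above the medians of 5.25 to 5.34. Tef, a bZIP factor of the clock's output, had 7.26, 7.50, 7.35 and 7.90 in CNS and 8.28, 8.29, 8.44 and 8.46 in CHS, and rose by 0.87 ± 0.15 (adjusted p = 0.00651). The 4 rats on high-salt chow lay close together for these genes, with SDs of 0.10, 0.13 and 0.09, against 0.56, 0.25 and 0.28 in the controls.

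Per2 rose by 0.92 ± 0.19 (adjusted p = 0.0157), Usp2, a deubiquitinase under clock control, by 0.97 ± 0.20 (adjusted p = 0.0164) and Cry2 by 0.48 ± 0.12 (adjusted p = 0.0451). The call of Usp2 was lost without CNS rat 1, CNS rat 3 or CHS rat 12 (adjusted p at most 0.0547) and that of Cry2 without CNS rat 1, 2 or 3 or CHS rat 9, 10 or 12 (at most 0.129). Per3 and the albumin D-box binding factor Dbp were 0.86 ± 0.24 and 1.14 ± 0.34 higher in mean without passing the test (adjusted p = 0.0653 and 0.0857), although their groups did not overlap. For both, CNS rat 4 was the control closest to the high-salt rats, at 7.88 for Per3 and 11.43 for Dbp, and both were called without that rat (adjusted p = 0.0201 and 0.0336). Per3 was also called with a filter on low values. Nr1d1, which encodes the Bmal1 repressor REV-ERB alpha, changed by 0.43 ± 0.29 (adjusted p = 0.461), and Cry1 by 0.05. The time of day at which the tissue was taken is not given in the sources used here.

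**Figure D1:**
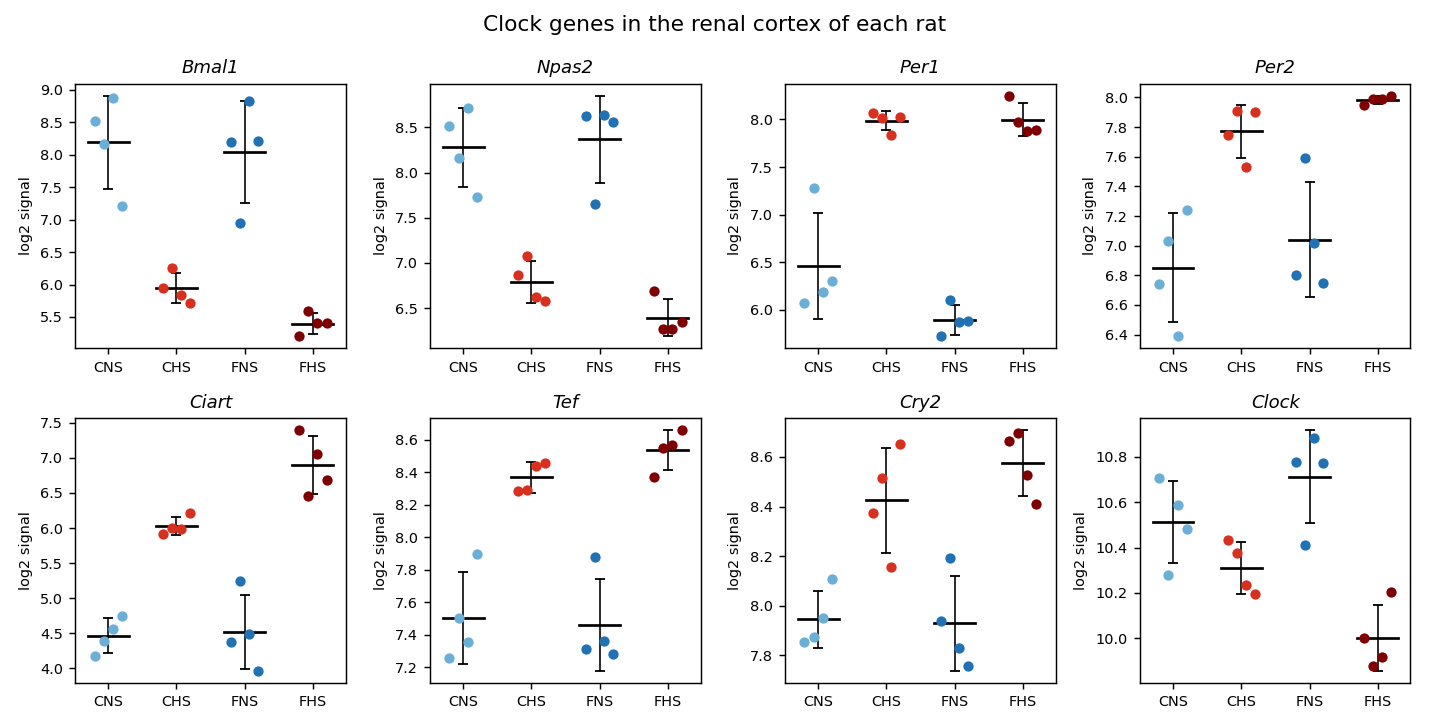
Log2 signal (y axis) of 8 clock genes in each of the 16 rats, by group (x axis: CNS and CHS on water, FNS and FHS on 20% fructose). Points are rats, the long line is the group mean and the bar is ± 1 SD (n = 4). Bmal1 and Npas2 were low and Per1, Per2, Ciart, Tef and Cry2 high in both groups on high-salt chow, and CNS rat 4 and FNS rat 6 lay nearest to the high-salt rats for Bmal1 and Npas2.

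BMAL1 complexes bind the E-box CACGTG, and promoters of called clock genes are shown because the letters of this box lie in some of them. The windows run from 250 bases before to 50 bases after the annotated start (RefSeq, build GRCr8), are printed in the direction of the gene, and have the searched letters, on either strand, in capitals. The Ciart window (chr2:186112197-186112496, minus strand) holds 3 such boxes, whose first bases lie at -93, -35 and -21 from the start. The Tef window (chr7:115206577-115206876, plus strand) holds 1, at -198. The Bmal1 window (chr1:176766078-176766377, plus strand) has none, and its capitals mark AGGTCA, the reverse strand of the nuclear receptor element TGACCT, at -15.
Ciart: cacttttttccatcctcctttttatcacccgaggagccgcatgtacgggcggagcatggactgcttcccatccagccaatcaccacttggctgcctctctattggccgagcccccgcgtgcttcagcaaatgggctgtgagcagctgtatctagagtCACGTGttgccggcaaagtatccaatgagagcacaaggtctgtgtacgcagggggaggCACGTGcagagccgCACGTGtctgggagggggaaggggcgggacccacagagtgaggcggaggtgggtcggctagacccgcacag
Tef: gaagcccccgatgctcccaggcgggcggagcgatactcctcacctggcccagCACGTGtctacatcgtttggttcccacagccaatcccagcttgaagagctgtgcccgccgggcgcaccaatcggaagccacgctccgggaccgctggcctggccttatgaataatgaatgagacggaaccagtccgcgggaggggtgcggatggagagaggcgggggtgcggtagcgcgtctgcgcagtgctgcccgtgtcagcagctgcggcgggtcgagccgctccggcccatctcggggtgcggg
Bmal1: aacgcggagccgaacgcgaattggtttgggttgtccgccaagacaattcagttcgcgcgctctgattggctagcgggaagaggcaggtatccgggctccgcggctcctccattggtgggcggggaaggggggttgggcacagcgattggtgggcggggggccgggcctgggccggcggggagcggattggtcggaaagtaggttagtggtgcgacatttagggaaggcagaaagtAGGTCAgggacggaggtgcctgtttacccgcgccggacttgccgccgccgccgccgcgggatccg

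Promoter windows were at hand for 14672 of the 18383 symbols. CACGTG was present in 25 of 158 windows of symbols called higher (15.8%) and in 23 of 331 of symbols called lower (6.95%), against 7.86% of all symbols with a window and 6.65% of all 27457 windows of the table. Among 16 clock genes with a window, 4 held it, namely Tef, Ciart, Bhlhe40 and Bhlhe41, of which the last pair were not called. TGACCT was present in 27 of 158 (17.1%) and 25 of 331 (7.55%), against 13.4% of symbols with a window and 15.7% of all windows, and among clock genes in Bmal1 and Usp2. The GATA letters GATAAG occurred in 12 of 158 and 19 of 331 windows, against 6.32% of symbols with a window and 6.91% of all windows. The D-box TTACGTAA occurred in 1 of 158 and 0 of 331, against 0.157% and 0.127%. Both strands were searched, and no searched motif contains another. These are matches of letters, with no measure of binding.

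Thra, which encodes thyroid hormone receptor alpha, was the symbol with the smallest p among those lower on the high-salt chow. Its log2 signals were 8.87, 8.73, 8.95 and 8.65 in CNS and 7.86, 7.90, 7.72 and 7.59 in CHS, far apart relative to the SDs of 0.13 and 0.14. The change was -1.03 ± 0.09 (adjusted p = 4.11e-05). In RefSeq the gene (GRCr8, chr10:84198141-84225659) overlaps the end of Nr1d1 (84224599 to 84231812), and which strand and stretch the probes of either gene cover is not given in the sources used here. Nr1d1 itself was not called, as given above.

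Genes that corticosteroids induce were higher on the high-salt chow, though only some passed the test. Of 18 measured members of a list of mineralocorticoid and glucocorticoid response genes, 4 were called, all higher, or 22.2% (background 3.32%), and 15 of the 18 were higher in mean. The median of the list was 0.32. The 4 were Per1, Usp2, Tsc22d3 and Ddit4, the first pair of which are also clock genes. Without CNS rat 1 or CNS rat 3, or in the fit of the 8 arrays alone, 2 were called. Tsc22d3, which encodes the glucocorticoid-induced leucine zipper protein, had 7.36, 7.63, 7.53 and 7.43 in CNS and 8.32, 8.38, 8.18 and 8.03 in CHS. It rose by 0.74 ± 0.11 (adjusted p = 0.00261), and the 8 rats separated cleanly. Ddit4, an inhibitor of the growth kinase mTORC1, rose by 0.71 ± 0.18 (adjusted p = 0.0377), a call lost without any 1 of the controls or without CHS rat 9 or 10 (adjusted p at most 0.103).

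Other members were higher in mean but scattered between rats. Sgk1, the aldosterone-induced kinase that holds the epithelial sodium channel in the membrane, had 10.72, 11.32, 11.08 and 9.78 in CNS and 11.62, 11.78, 11.02 and 11.57 in CHS, and was not called (0.77 ± 0.29, adjusted p = 0.159). Its groups overlapped, since CHS rat 11 lay below 2 of the controls. Fkbp5, a cochaperone of the glucocorticoid receptor, was 0.82 ± 0.31 higher in mean and not called (adjusted p = 0.165). Errfi1, a feedback inhibitor of the EGF receptor, was 0.78 ± 0.21 higher with no overlap of the groups (adjusted p = 0.0612), and was called without CNS rat 2 (0.0397). Errfi1 was also called with a filter on low values, with an intensity trend and with array weights. The receptors Nr3c1 and Nr3c2 changed by -0.06 and -0.27 and were not called.

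Some chaperones of the endoplasmic reticulum and their cytosolic relatives were higher on the high-salt chow, while most members of the list did not pass the test. Cells raise these proteins when secretory proteins need more help in folding. Of 27 measured members of the list, 10 were called, all of them higher, or 37.0% (background 3.32%, and 1.08% for calls in that direction). The median change was 0.29, and 22 members were higher in mean. Of the 5 lower in mean, none was called, and those with the smallest p were Canx and Dnajc3 (-0.17 ± 0.07 and -0.19 ± 0.09, adjusted p = 0.241 and 0.271), and the groups did not overlap for Canx and Pdia3. The fit of the 8 arrays alone called 5. With single rats left out between 4 and 9 members were called, namely 4 without CNS rat 1, CNS rat 3 or CHS rat 12 and 6 without CHS rat 11, and the median stayed between 0.22 and 0.28.

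Herpud1, a membrane protein that helps to degrade misfolded proteins, led the list with 9.07, 9.39, 9.28 and 9.52 in CNS and 9.95, 10.32, 10.22 and 10.50 in CHS, a rise of 0.93 ± 0.13 (adjusted p = 0.0016), or 1.91-fold. Hspa5, the main Hsp70 chaperone of the reticulum (BiP), had 11.85, 12.00, 11.87 and 12.21 in CNS and 12.59, 12.57, 12.47 and 12.79 in CHS, a rise of 0.62 ± 0.13 (adjusted p = 0.0161). Neither gene overlapped between the groups. The disulfide isomerase Pdia4 rose by 0.78 ± 0.15 (adjusted p = 0.0116), the secreted stress protein Manf by 0.70 ± 0.14, the chaperone Hyou1 by 0.57 ± 0.12 and Creld2 by 0.50 ± 0.11. In the cytosol, the Hsp70 partner Hsph1 rose by 0.66 ± 0.13 (adjusted p = 0.0128), the cochaperone Dnajb1 by 0.49 ± 0.13 and the constitutive Hsc70 gene Hspa8 by 0.31 ± 0.08. Sel1l, a part of the ubiquitin ligase that degrades reticulum proteins, rose by 0.44 ± 0.11. The calls of Herpud1, Pdia4 and Hsph1 held with any of the 8 rats left out. That of Hspa5 was lost without CNS rat 1, CNS rat 3 or CHS rat 12, that of Manf without CNS rat 3 or CHS rat 12, that of Hyou1 without CNS rat 1 and that of Creld2 without CNS rat 1 or 3 or CHS rat 11 or 12 (adjusted p at most 0.0551, 0.0546, 0.0563 and 0.063). Those of Hspa8 and Sel1l were lost without any single rat other than CNS rat 4, and that of Dnajb1 without any other than CNS rat 2 (at most 0.103, 0.132 and 0.121). The transcription factors of the stress response were not called: Xbp1 changed by 0.34, Ddit3 by 0.29 and Atf4 by 0.04.

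**Figure D2:**
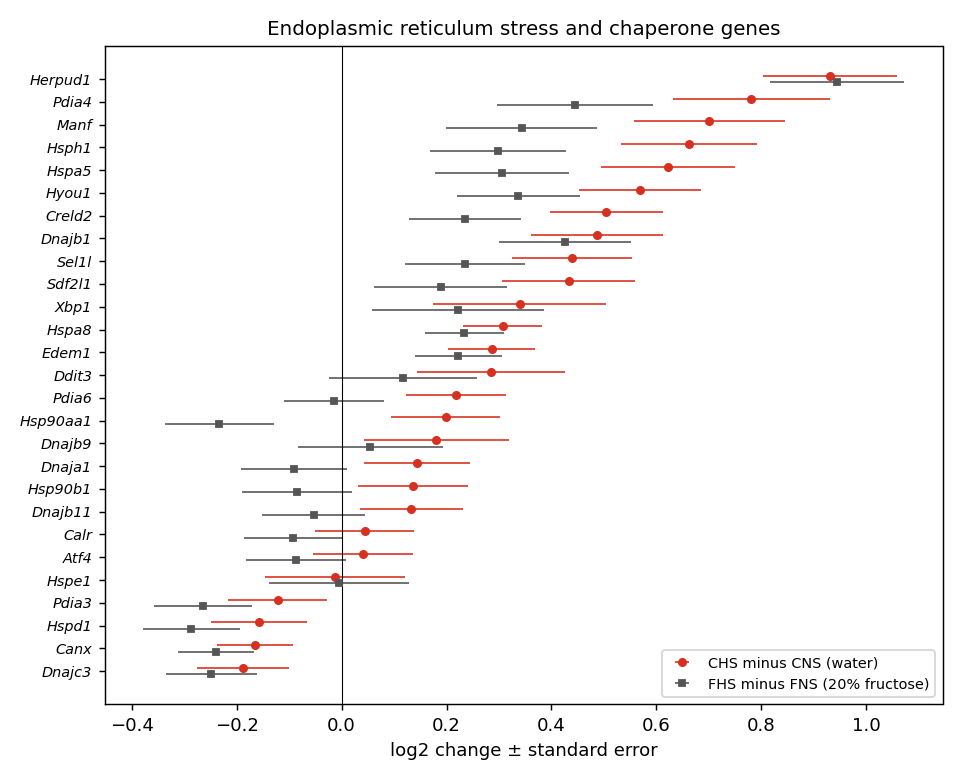
Log2 change (x axis, ± standard error) of 27 endoplasmic reticulum stress and chaperone genes (y axis) between high-salt and standard chow, in water-drinking rats (circles, CHS minus CNS) and in fructose-drinking rats (squares, FHS minus FNS), n = 4 rats a group. Herpud1 changed alike in both, and most other members lay further right in the water-drinking rats.

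In energy metabolism few genes of the listed pathways were called. Pck1, phosphoenolpyruvate carboxykinase, which commits the proximal tubule to making glucose, had 11.63, 11.47, 11.61 and 12.26 in CNS and 12.75, 12.82, 12.65 and 12.83 in CHS. All 4 high-salt rats exceeded all controls, with rat 4 the highest of the controls, and the change was 1.02 ± 0.16 (adjusted p = 0.00413), or 2.03-fold. Of the 18 measured genes of gluconeogenesis 2 were called (background 3.32%). Pck1 was the 1 called higher and Foxo1, a transcription factor that drives the pathway in liver, the 1 called lower (-0.45 ± 0.12, adjusted p = 0.0455). The call of Foxo1 was lost with any of the 8 rats left out (adjusted p 0.0546 to 0.122), with quantile normalization and in the fit of the 8 arrays alone. A second, dimmer TranscriptClusterID of Foxo1 changed by 0.02. Pyruvate carboxylase, Pc, was 0.41 ± 0.13 higher in mean (adjusted p = 0.093), and fructose bisphosphatase Fbp1 and glucose 6-phosphatase G6pc1 changed by 0.13 and -0.13 and were not called. The promoter window of Pck1 (GRCr8, chr3:182348322-182348621, plus strand), the best known of renal and hepatic gluconeogenesis, is shown with that element, as AGGTCA, at -144, in capitals.
Pck1: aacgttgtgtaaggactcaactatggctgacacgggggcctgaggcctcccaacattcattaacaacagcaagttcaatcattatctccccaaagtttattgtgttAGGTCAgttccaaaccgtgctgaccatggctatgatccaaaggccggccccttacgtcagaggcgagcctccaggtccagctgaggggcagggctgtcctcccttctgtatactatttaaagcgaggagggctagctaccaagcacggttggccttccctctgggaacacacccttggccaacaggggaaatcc

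Mitochondrial genes changed little as a group. Of 44 measured genes of oxidative phosphorylation 2 were called (4.55%, against 3.32% of all symbols), both higher, namely Ndufa9 of complex I (0.45 ± 0.09, adjusted p = 0.0139, lost in the fit of the 8 arrays alone) and Sdhc of complex II (0.33 ± 0.08, adjusted p = 0.029), and the median of the list was 0.07. Among 29 genes of fatty acid oxidation 1 was called (3.45%), Acadvl, the dehydrogenase of very long chains (0.40 ± 0.10, adjusted p = 0.0346). The call of Sdhc was lost without any single rat other than CNS rat 4, and that of Acadvl without any other than CNS rat 2 (adjusted p at most 0.0825 and 0.0982). Slc25a25, an ATP-magnesium carrier of the inner mitochondrial membrane, changed far more, with 5.63, 5.43, 5.31 and 6.12 in CNS and 7.84, 7.57, 7.73 and 7.10 in CHS, a rise of 1.94 ± 0.37 (adjusted p = 0.0116). Isca1, which assembles iron-sulfur clusters, rose by 0.54 ± 0.09 (adjusted p = 0.00581), with SDs of 0.06 and 0.05 in the 2 groups. Ppard, a nuclear receptor for fatty acids, fell by 1.29 on the log2 scale (standard error 0.24, adjusted p = 0.0107), while a second, dimmer TranscriptClusterID of that gene changed by -0.09.

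Nat8f3 was the symbol with the second smallest p among those higher. It belongs to a family of acetyltransferases of kidney and liver whose founder, Nat8, finishes mercapturic acids for excretion. Nat8f3 had 9.65, 9.63, 9.84 and 10.27 in CNS and 11.37, 11.46, 11.35 and 11.41 in CHS, a rise of 1.55 ± 0.17 (adjusted p = 0.000335). Nat8 rose by 1.07 ± 0.20 (adjusted p = 0.0104). It was the 1 called gene of 33 measured in a list of xenobiotic metabolism (3.03%, against 3.32% of all symbols). Of 7 Nat8 family symbols on the array 3 were called, all higher (1.08% of all symbols were), the last being Nat8f5 (0.76 ± 0.15, adjusted p = 0.013). The family was counted after its values had been seen, and its close copies may share probes.

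Genes of salt reabsorption and of its hormones were measured but did not pass the test in the water-drinking rats. No gene was called among 12 of the angiotensin system, 23 of distal sodium and potassium transport, 22 of proximal sodium, phosphate, sulfate and sugar transport, or 27 of natriuretic peptides, guanylins, kallikrein and dopamine, where 3.32% of all symbols were. The medians of these lists were -0.11, -0.06, 0.07 and 0.004. The groups did not overlap for 1, 3, 5 and 2 of their members, where 13.6% of all symbols had no overlap. In the fructose-drinking rats, FHS minus FNS called 2 higher and 1 lower in the angiotensin list, and 1 higher and 4 lower in the distal list. It called 0 in the proximal list and 1 higher in the last list, where 5.34% of all symbols were called.

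Agtrap, a negative regulator of the angiotensin receptor, was 0.42 ± 0.11 higher with no overlap of the groups (adjusted p = 0.054). It was called in no fit with 1 rat left out (lowest adjusted p = 0.0504) but under 4 other settings. Slc9a3, the sodium-hydrogen exchanger NHE3 and the main entry of sodium into proximal tubule cells, had 9.85, 9.62, 9.87 and 9.99 in CNS and 10.29, 10.16, 10.16 and 10.27 in CHS. Its change of 0.39 ± 0.10 lay at the threshold (adjusted p = 0.0503), and it passed without CNS rat 4 (0.0475) and under 3 other settings.

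Further down the nephron, the cotransporter genes Slc12a1 (NKCC2, thick ascending limb) and Slc12a3 (NCC, distal convoluted tubule) changed by -0.21 ± 0.25 and 0.16 ± 0.10, and both sets of rats overlapped (adjusted p = 0.7 and 0.465). Stk39, the kinase SPAK that phosphorylates those cotransporters, changed by -0.39 ± 0.10 (adjusted p = 0.057, and 0.0397 without CNS rat 4), with no overlap. Stk39 was also called with a filter on low values, with an intensity trend and with array weights. The sodium channel subunits Scnn1a, Scnn1b and Scnn1g changed by -0.29, -0.19 and 0.28, and none was called, although Scnn1g was without CHS rat 11 (adjusted p = 0.0345). Aqp2 encodes the water channel that vasopressin sends to the membrane of principal cells. It was the 1 called gene among 25 of osmolytes, aquaporins and urea transport (4.0%, against 3.32% of all symbols). It had 9.85, 9.95, 9.93 and 9.85 in CNS and 10.27, 10.55, 10.51 and 10.90 in CHS, a rise of 0.66 ± 0.14 (adjusted p = 0.0186), or 1.58-fold. That call was lost without CNS rat 1 or CHS rat 12 (adjusted p at most 0.0572). The other 10 markers of connecting tubule and principal cells were not called.

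**Figure D3:**
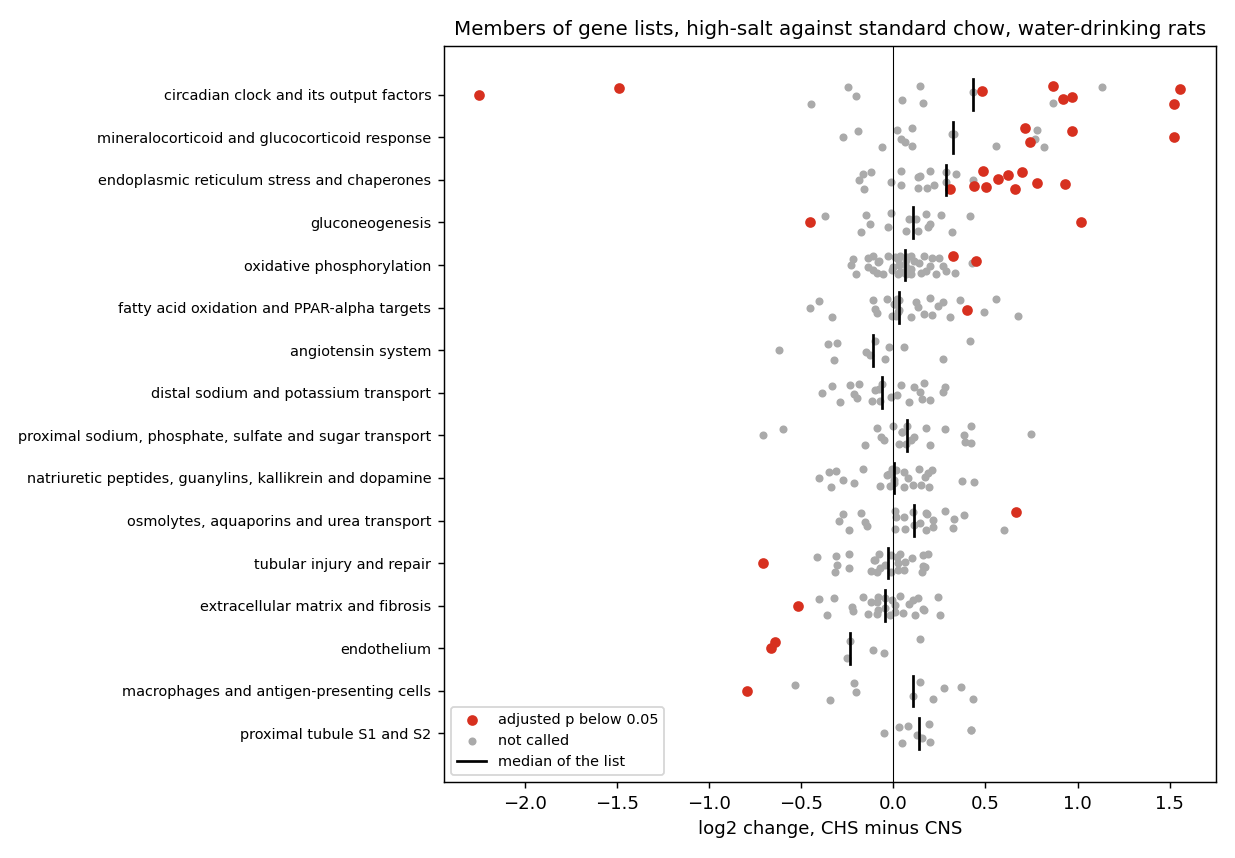
Log2 change, CHS minus CNS (x axis), of every measured member of 16 gene lists (y axis; the vertical scatter within a row has no meaning). Red points were called at an adjusted p below 0.05, grey points were not, and the black line is the median of the list. The clock, corticosteroid and chaperone lists had 8, 4 and 10 called members, and the 4 lists of salt hormones and transport had none.

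A few genes of vessels and leukocytes were lower on the high-salt chow, while most markers of these cells did not pass the test. Myh11, the myosin of smooth muscle, had 7.25, 7.35, 7.10 and 7.31 in CNS and 6.47, 6.74, 6.55 and 6.51 in CHS, a change of -0.69 ± 0.11 (adjusted p = 0.00346). The endothelial cadherin Cdh5 changed by -0.66 ± 0.15 (adjusted p = 0.0252) and Ehd3, which in the kidney marks glomerular endothelium, by -0.64 ± 0.16 (adjusted p = 0.0428). These were 2 of the 7 measured endothelial markers, of which 6 were lower in mean, the list's median being -0.24, where 3.32% of all symbols were called and 2.24% were called lower. The summed linear signal of the 7 ran from 3930 to 4556 in CNS and from 2956 to 3443 in CHS, with no overlap. With quantile normalization 1 of the 2 was called. Neither was called without CNS rat 1, 2 or 3 or without CHS rat 10, 11 or 12, and 1 was called without CNS rat 4 or CHS rat 9. In whole tissue, fewer cells of a type and less RNA per cell cannot be told apart.

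Of the remaining markers around the vessels, the podocyte factor Wt1 changed by -0.46 ± 0.11 (adjusted p = 0.0283) as the 1 called of 5 podocyte markers (background 3.32%, as for the counts that follow), a call lost without CNS rat 1 or CHS rat 9, 11 or 12 (at most 0.0744). The slit diaphragm gene Nphs1 changed by -0.21 and was not called, and the summed signal of the 5 ran from 2110 to 2429 in CNS and from 1852 to 2099 in CHS. Of 7 markers of fibroblasts and smooth muscle Myh11 was the 1 called, and their summed signal overlapped between the groups, at 3292 to 3931 in CNS and 3013 to 3848 in CHS. Of 2 called genes among 25 of endothelin, nitric oxide and prostaglandins, Ednrb, the endothelin B receptor, changed by -0.36 ± 0.09 (adjusted p = 0.0458) and Ddah2, of a family that breaks down inhibitors of nitric oxide synthase, by 0.65 ± 0.12 (adjusted p = 0.0111). The call of Ednrb was lost with any of the 8 rats left out (adjusted p 0.0588 to 0.121).

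Cx3cr1, the fractalkine receptor of resident renal macrophages and dendritic cells, had the third smallest p of the symbols that were lower. It had 7.88, 7.98, 7.92 and 7.81 in CNS and 7.08, 7.01, 7.17 and 7.14 in CHS, a change of -0.79 ± 0.09 (adjusted p = 0.00043). It was the 1 called (background 3.32%) of 11 markers of macrophages and antigen-presenting cells. The list did not move as a whole: 6 of 11 were higher in mean, C1qa changed by 0.37 and Csf1r, the receptor for the macrophage growth factor, by -0.35 ± 0.10 (adjusted p = 0.0615, and 0.0489 without CNS rat 2), and the summed signal of the 11 overlapped, at 5254 to 6817 in CNS and 5066 to 6133 in CHS. Csf1r was also called with a filter on low values, with an intensity trend and with array weights. Among 9 measured lymphocyte markers 0 were called, 7 were higher in mean and 2 lower, and the median change was 0.18. The chemokine Ccl2, which draws in monocytes, changed by -0.71 ± 0.15 (adjusted p = 0.0193) and Arhgap15, a regulator of Rac in leukocytes, by -0.61 ± 0.10 (adjusted p = 0.00413). Mrgprb2, in mouse a receptor of mast cells, had 6.66, 6.73, 7.02 and 6.71 in CNS and 5.18, 5.67, 5.95 and 5.21 in CHS, a change of -1.28 ± 0.16 (adjusted p = 0.000811). Genes of tubular injury and of matrix gave few calls, with Ccl2 the 1 called of 28 (background 3.32%) and Tgfb1 (-0.52 ± 0.13, adjusted p = 0.042) the 1 called of 29. The call of Ccl2 was lost without CNS rat 1 or 3 or CHS rat 10 (adjusted p at most 0.0625) and that of Tgfb1 with any of the 8 rats left out (0.0553 to 0.097).

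**Figure D4:**
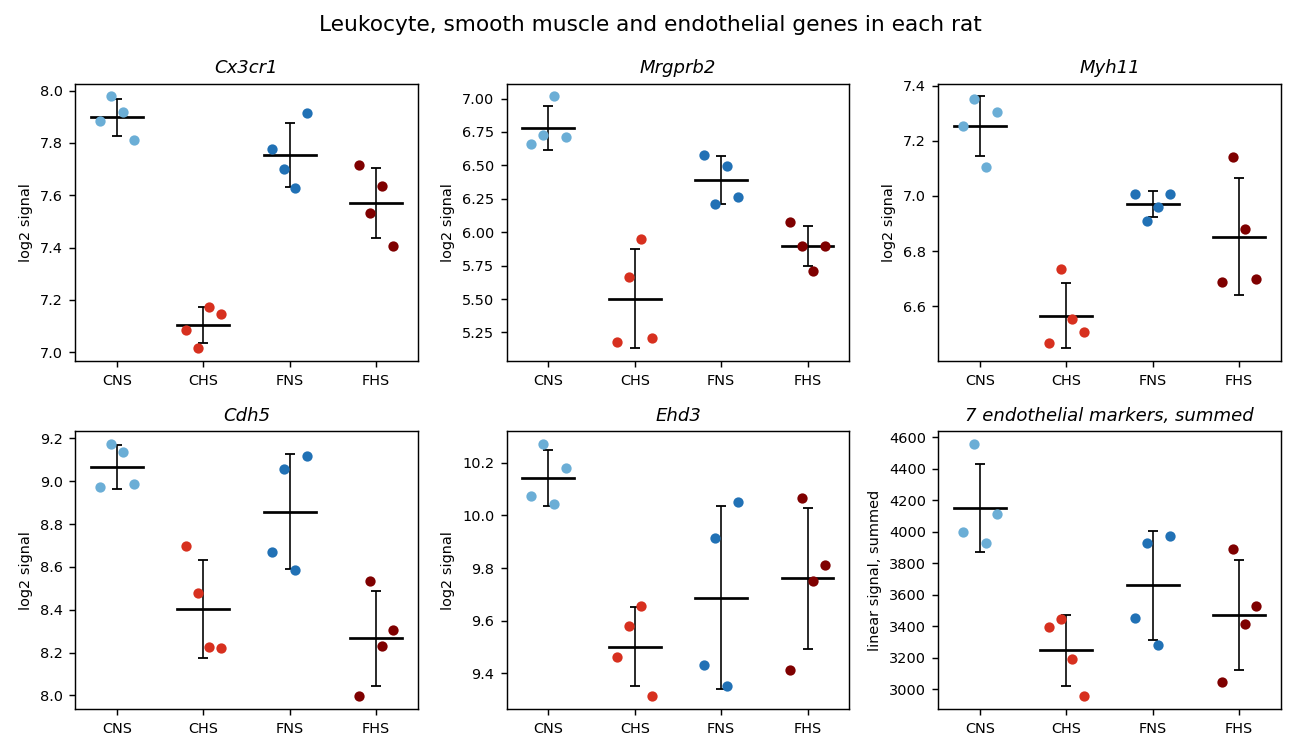
Log2 signal (y axis) of 5 genes in each of the 16 rats by group (x axis), and, in the last panel, the summed linear signal of 7 endothelial markers. Points are rats, the long line is the group mean and the bar ± 1 SD (n = 4). CHS lay below CNS with no overlap in every panel, whereas FHS and FNS overlapped for Cx3cr1, Myh11, Ehd3 and the summed markers.

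The genes with the smallest p among those lower did not belong to 1 of the listed pathways. Rab5b, a GTPase of early endosomes, had 8.72, 8.53, 8.70 and 8.65 in CNS and 7.93, 7.87, 7.85 and 7.80 in CHS, a change of -0.79 ± 0.07 (adjusted p = 6.42e-05). Several encode nuclear proteins, among them the nucleoporin Pom121 (-0.85 ± 0.10), the bromodomain protein Brd3 (-0.78 ± 0.09), the chromatin remodelling subunit Arid1a (-0.66 ± 0.09), the 3' end processing factor Cpsf7 (-0.72 ± 0.09) and Hoxa6 (-0.94 ± 0.12). Others were Extl3 of heparan sulfate synthesis (-0.88 ± 0.10), the adhesion molecule Nectin1 (-0.77 ± 0.11), the receptor adaptor Arrb2 (-0.996 ± 0.139), Wbp2 (-0.85 ± 0.11), Ptms (-0.76 ± 0.09) and Sipa1l3 (-0.66 ± 0.10). For each of these 12 genes the 2 groups did not overlap and the adjusted p stayed below 0.05 with any rat left out. Of 32 Hox symbols, a family counted after its values had been seen, 7 were called, all lower (21.9%, where 2.24% of all symbols were called lower).

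Symbols called lower lie, in median, in longer genes than those called higher. The latter include 11 olfactory receptor and 10 microRNA symbols, and whether the kind of locus or its level set the difference was not tested. The median genomic span in RefSeq was 32446 bp for those lower and 10010 bp for those higher, against 17223 bp for all symbols and 25220 bp for symbols that were not called and had a level at or above the median. Of the symbols with the smallest p among those higher, Polr2d, a subunit of RNA polymerase II, rose by 0.77 ± 0.12 (adjusted p = 0.00323), the mitochondrial RNA methyltransferase Mrm3 by 0.51 ± 0.08 and Rgcc, a cell cycle regulator, by 1.11 ± 0.18. Tmem252, a membrane protein, rose by 1.70 ± 0.30 (adjusted p = 0.00829). Rnf125, a ubiquitin ligase and 1 of the 5 symbols with the largest fall, changed by -1.40 ± 0.27 (adjusted p = 0.0112).

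Some large changes came from loci that are not known for a role in kidney. Or5h25, an olfactory receptor symbol, had 6.50, 5.56, 5.59 and 5.83 in CNS and 8.48, 8.62, 8.09 and 8.45 in CHS, a rise of 2.54 ± 0.20 (adjusted p = 2.01e-05), the smallest p of any symbol. It was not typical of its family: of 1117 olfactory receptor symbols 17 were called (1.52%), 11 higher and 6 lower. The keratin-associated symbol Krtap12-2 rose by 0.94 ± 0.15 (adjusted p = 0.00426). Ins1, an insulin gene called lower, was dim in all 8 rats (3.49 to 4.51 in CNS and 2.36 to 3.13 in CHS), below the median signal of every array, and since the files hold no detection calls its change is not given. Of 363 microRNA host symbols, which the array reads at the level of the precursor's locus and not of the mature RNA, 14 were called, 10 higher and 4 lower, and their share of 3.86% was near the 3.32% of all symbols. Mir9-1 rose by 1.21 ± 0.16 (adjusted p = 0.00132) and Mir98 by 1.20 ± 0.20 (adjusted p = 0.0057). Their mature 5' arms, shown to identify these loci (RefSeq, GRCr8, seed in capitals), have different seeds.
rno-miR-9a-5p: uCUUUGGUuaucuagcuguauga
rno-miR-98-5p: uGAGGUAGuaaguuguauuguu

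The difference between the chows was much the same in direction in the 8 rats that drank fructose, which share no array with the 8 that drank water. There, FHS minus FNS called 1968 TranscriptClusterIDs and 982 of 18383 symbols, the latter 5.34%. The 1968 fell to 869 without FNS rat 5, 1088 without FNS rat 6, 868 without FNS rat 8, 1025 without FHS rat 13, 1194 without FHS rat 14 and 1211 without FHS rat 15. Of the 610 symbols called in water-drinking rats, 597 (97.9%) changed in the same direction with fructose, whereas 68.1% of all symbols did. Of the 610, 316 were also called in FHS minus FNS, all in the same direction, which is 51.8% of the 610 and 32.2% of the 982. The median absolute change of the 610 symbols was 0.53 on water, the side on which they were chosen, and 0.40 with fructose.

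The clock difference was present in both settings. With fructose, Bmal1 changed by -2.65 ± 0.35, Npas2 by -1.97 ± 0.23, Per1 by 2.10 ± 0.20 and Ciart by 2.38 ± 0.24, with adjusted p of 0.000864, 0.000386, 9.93e-05 and 0.000126. Bmal1 had 8.20, 6.95, 8.82 and 8.21 in FNS and 5.21, 5.59, 5.40 and 5.40 in FHS, so in this pair too 1 control, rat 6, lay lower than the others. Pck1 changed by 0.82 ± 0.16, Nat8f3 by 1.41 ± 0.17, Thra by -0.86 ± 0.09, Herpud1 by 0.94 ± 0.13 and Or5h25 by 3.21 ± 0.20, and all 5 were called. Of the 10 chaperone genes called on water, Herpud1 was the 1 called with fructose, and the other 9 changed by 0.23 (Hspa8) to 0.44 (Pdia4) in the same direction.

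Whether the chow difference itself depended on fructose was tested by the difference of the differences. No TranscriptClusterID passed (0 of 36685, or 0%, lowest adjusted p = 0.599 by limma), while 2235 had an unadjusted p below 0.05. Among the genes with the smallest p, 5 each way, were the following. Cx3cr1 changed by -0.79 ± 0.09 on water and by -0.18 ± 0.09 with fructose (adjusted p of the difference 0.599). Gpm6a, a neuronal and podocyte membrane glycoprotein, changed by -0.30 ± 0.21 on water and by 1.20 ± 0.21 with fructose, and Arhgap15 by -0.61 ± 0.10 on water and by -0.001 ± 0.096 with fructose. In the other direction, Rhoq, a small GTPase, changed by 0.01 ± 0.10 on water and by -0.67 ± 0.10 with fructose, Zbtb5, a zinc finger gene, by 0.34 ± 0.09 (a call lost with any rat left out) and -0.13 ± 0.09, and Zmat4, another, by 0.32 ± 0.16 and -0.54 ± 0.16. The remaining 4, Nalf2, Or10j27, Nlrp4al1 and Dcm5, were dimmer than the array medians in water-drinking rats. Myh11 and Ehd3 changed by -0.12 ± 0.11 and 0.07 ± 0.16 with fructose. None of these differences passed.

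**Figure D5:**
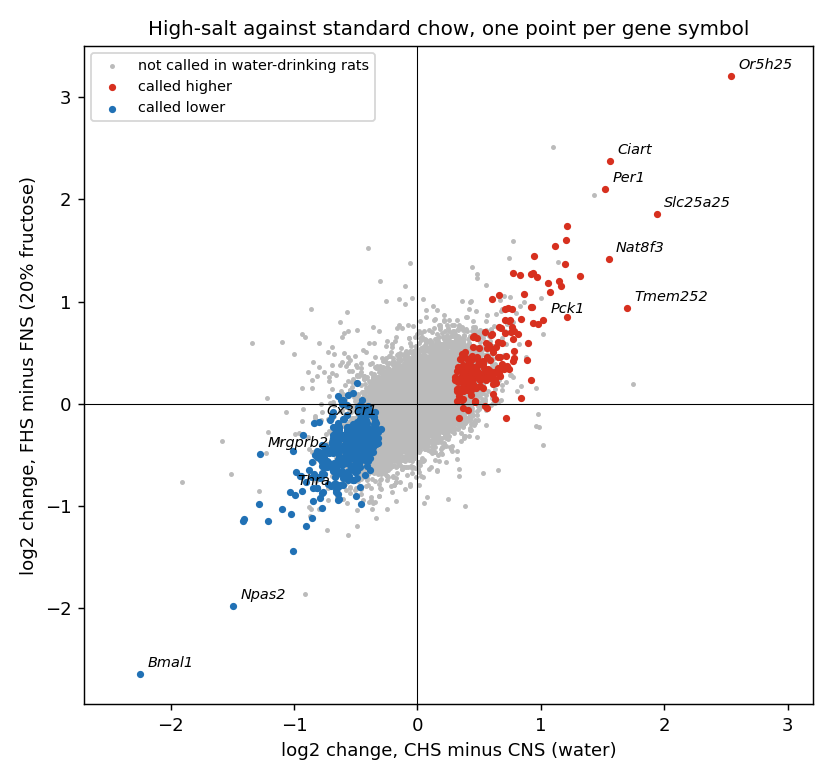
Log2 change between high-salt and standard chow in water-drinking rats (x axis, CHS minus CNS) and in fructose-drinking rats (y axis, FHS minus FNS), 1 point per gene symbol (18383). Red and blue points are the 198 symbols called higher and 412 called lower on the x axis, and 597 of these 610 lie in the same direction on both axes.

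The study's own way to weigh genes, the Characteristic Direction, gives each TranscriptClusterID a differential expression (DE) value, with the squares summing to 1, and was computed here on linear signals, which favours bright genes. The scale the study used is not given in the sources used here. For CHS minus CNS the 10 TranscriptClusterIDs farthest from 0 held 13.8% of the summed squares, as a description with no test. On log2 signals that share was 2.345%, and 0 of these 10 were among the 10 farthest from 0, so the order below holds for linear signals. Among symbols, Pck1 came first with a DE value of 0.149, followed by Ndrg1, a hypoxia-responsive gene, at -0.115, Hspa8 at 0.0983, Hspa5 at 0.0907 and Nat8f3 at 0.0841. Of the 10 TranscriptClusterIDs, 6 have no single symbol. Ndrg1 also passed limma's test (-0.47 ± 0.10, adjusted p = 0.0219) as the 1 called of 17 hypoxia targets (5.88%, against 3.32% of all symbols). That call was lost without CNS rat 1 or 3 or CHS rat 9, 11 or 12 (adjusted p at most 0.0667). Of the next 5, Rpl36l2 and Naglt1 were called (-0.79 and 0.60) and Aldh8a1, Cat and Gpx3 were not, with changes of -0.31, -0.22 and -0.17. Bmal1 was not among these 10.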

How the data were processed

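RNA from the superficial renal cortex of 16 rats, 4 in each of 4 diet groups, was hybridised to Affymetrix RaGene 2.0 ST arrays, 1 array per rat. The authors deposited log2 values made with Affymetrix Expression Console by robust multi-array average (background correction, normalization between arrays and a summary per TranscriptClusterID), so that a signal is relative and holds no count or depth, and the number of arrays limits the precision. Groups were taken from the sample labels. Of 36685 TranscriptClusterIDs, 18511 had 1 gene symbol in the platform annotation, 254 were named from identifiers in the study's tables, 497 had several symbols and 17423 had none; the 18383 symbols were each represented by the TranscriptClusterID of highest mean over all 16 arrays.

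A mean per group was fitted over the 16 arrays with limma 3.58.1 in R 4.3.3, without a block, and CHS minus CNS, FHS minus FNS and their difference were tested with Benjamini-Hochberg adjustment over all TranscriptClusterIDs. All adjusted p-values are from these fits, and called means an adjusted p below 0.05. Standard errors are limma's moderated ones, which pool the spread within all 4 groups and are not those of the 8 arrays alone. The fit was checked on simulated data. Tables were made in Python 3.11.15 with pandas 2.3.3 and numpy 2.4.6. The Characteristic Direction was computed on linear values, a choice made here, with components to 95% of the variance. Genes were named from a pool made of the 15 each way with the smallest p, the 5 each way with the largest change, up to 4 of each list by p, 5 each way in the difference of differences, 5 defining genes and 10 by Characteristic Direction. Not every gene of the pool is named, and further list members, and the rat-by-rat examples among them, were picked after their values were seen. The members, gene lists and tests were chosen with earlier results of these data known. Alternatives were a filter on low values, symbols only, quantile normalization, the 8 arrays alone, an intensity trend, array weights, the analysis of variance that the study's methods name, and each rat left out in turn. Promoter windows (250 bases before to 50 after a start) and miRNA sequences are from RefSeq tables of build GRCr8. The p-values measure the spread between rats, which were housed in pairs, and they count cage mates as separate animals. No other column or sample was used. The study's own lists of changed genes served only to name the 254 TranscriptClusterIDs given above, which could thereby enter the symbols described. A gene of the angiotensin system is not reported here.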

Additional observations from a re-analysis of the deposited data

Results flagged for a closer look

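Among the 104 genes named with values, each of the 208 groups of 4 water-drinking rats was searched for a rat that stood apart from the other 3 of its group, by the gap to its nearest neighbour as a share of the group's range. In 9 groups, or 4.33%, this share passed Dixon's 95% critical value for 4 samples, and chance gives about 1 in 20.

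In CHS, rat 12 was high for Manf (9.03 against 8.68 to 8.73 in the others, share 0.842), rat 9 was high for Zmat4 (6.38 against 5.91 to 5.99, share 0.843) and rat 11 was low for Slc12a3 (10.79 against 11.06 to 11.11, share 0.849). In CNS, rat 4 was high for Hspa8 (13.34 against 13.17 to 13.19, share 0.914). CNS rat 3 was low for Agtrap (9.28 against 9.54 to 9.58, share 0.859), for Scnn1g (8.40 against 8.51 to 8.53, share 0.881) and for Sipa1l3 (7.68 against 7.83 to 7.85, share 0.882). CNS rat 2 was low for Slc12a1 (10.88 against 11.42 to 11.49, share 0.887) and for Aldh8a1 (12.89 against 13.11 to 13.11, share 0.988).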

How the results depend on the processing

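The 1208 TranscriptClusterIDs called in CHS minus CNS became 533 in a fit of those 8 arrays alone and 400 by the analysis of variance, and ranged from 562 (without CNS rat 1) to 1244 (without CNS rat 2) with 1 rat left out. A filter on low values gave 1585, quantile normalization 1237, an intensity trend 1521, array weights 1726 and symbols alone 857. The 1968 of FHS minus FNS became 733 in the 8 arrays alone and ranged from 868 (without FNS rat 8) to 2186 (without FHS rat 16). The difference of differences gave 0 to 1, with 1 called without CHS rat 11 and without FHS rat 16. The share of the 10 leading TranscriptClusterIDs in the Characteristic Direction, 13.78%, became 2.345% on log2 values and 15.81% with a regularization of 0.5, and ranged from 12.64% to 17.4% (without CHS rat 9 and CNS rat 4) with 1 rat left out. Of 69 named genes that were called, 46 kept the call under every alternative tried and 23 lost it under at least 1, while 10 of 35 not called were called under at least 1. No called gene changed sign. Of those not called, Atf4 ranged from -0.0183 (without CHS rat 10) to 0.0985 (without CHS rat 11), Cry1 from -0.0245 (without CNS rat 1) to 0.2067 (without CNS rat 3), and Rhoq from -0.0372 (without CNS rat 2) to 0.0654 (without CHS rat 12), and Cry1 was also negative without CNS rat 4 or CHS rat 9 and Rhoq without CNS rat 1, CHS rat 9 or CHS rat 11. Fits with rats left out hold fewer arrays, and the cause of the other shifts was not tested. No paired analysis was possible because the rats are numbered 1 to 16 and the groups share no number.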
